A study of Mus musculus with 16 samples.

Results

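The cluster of miR-221 and miR-222 is a pair of miRNA hairpins encoded close together on the mouse X chromosome. Its mature products were followed in dendritic cells grown from mouse bone marrow. The members were the 4 rows named mmu-miR-221-5p, mmu-miR-221-3p, mmu-miR-222-5p and mmu-miR-222-3p, of 1372 miRNA names used in a table of small RNA sequencing counts. Cultures came from 4 C57BL/6 mice labelled WT (wild type), with 1 library per mouse in each of 4 groups. In the quercetin plus LPS group, 25 µM of the flavonol quercetin was given on culture days 5 and 7. Lipopolysaccharide (LPS), the ligand of the receptor TLR4 from the outer membrane of Gram-negative bacteria, followed on day 8 for 6 h at 1 µg/mL. The quercetin group received the same quercetin without LPS, the LPS group the same LPS without quercetin, and the control group received neither. Mice 1 to 3 were 8 weeks old and mouse 4 was 7 weeks old, per the labels, which describe male animals for all libraries but 1 whose label gives no sex. All cultures had been depleted of red blood cells by lysis before plating.

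A miRNA hairpin yields a 5p and a 3p arm, and the arm that is retained in Argonaute guides it to messenger RNAs that match bases 2 to 8 of the miRNA, its seed. For miR-221 and miR-222 the 3p arm is the usual guide. Both are known for repressing Cdkn1b, an inhibitor of cyclin-dependent kinases, and Kit, the receptor for stem cell factor. In macrophages the cluster is known as responsive to LPS and as a regulator of the later response to it. Quercetin is known for damping inflammatory signalling.

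The mature sequences are shown because the 3p arms carry most of the reads and share a seed. They are from RefSeq (GRCm38.p6), 5′ to 3′, with the seed in capitals, and 3 of the 4 members had an entry.
mmu-miR-221-3p: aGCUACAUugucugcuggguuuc
mmu-miR-222-3p: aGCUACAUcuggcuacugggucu
mmu-miR-221-5p: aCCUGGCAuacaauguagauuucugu
The first 8 bases of miR-221-3p and miR-222-3p are identical, and over their 23 bases without gaps 11 positions match. One other mature mouse miRNA of the reference, miR-1928, has this seed, and it is not named in the count table. The hairpins show where the arms lie, with the arms listed above in capitals.
Mir221: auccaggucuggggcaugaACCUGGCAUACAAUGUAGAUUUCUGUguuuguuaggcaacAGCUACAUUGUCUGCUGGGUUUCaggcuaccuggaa
Mir222: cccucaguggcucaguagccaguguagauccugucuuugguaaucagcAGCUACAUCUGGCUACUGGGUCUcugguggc
Mir221 lies at chrX:19146294-19146388 and Mir222 at chrX:19146893-19146971 (GRCm38.p6), both on the minus strand, with 504 bases between them. The GENCODE annotation of the same build has no other gene over either hairpin. The nearest on the upstream side is Gm14636, a processed transcript on the same strand that ends 10009 bases from Mir222.

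Libraries held 6454535 to 9035375 miRNA counts in the quercetin plus LPS group, 7694885 to 8563815 in the quercetin group, 10096639 to 13943904 in the LPS group and 8660267 to 12529118 in the control group. All 4 members passed the filter on low counts, as did 568 miRNAs in all. The libraries quercetin plus LPS 4, quercetin 4, LPS 4 and control 3 were the highest of their groups on the second principal component, which held 22.0% of the variance. The quercetin plus LPS group was spread along it as a whole, from -11.4 and -8.77 in mice 3 and 2 to 6.99 and 15 in mice 1 and 4. Results are also given without these 4 libraries. Blood cell miRNAs (miR-142a, miR-223 and miR-155 arms) were present in every library, at a summed level of 50860 to 101900 CPM (read counts scaled to library size). They mark blood cells and do not single out dendritic cells. In these bulk samples fewer cells of a type and less RNA per cell cannot be told apart.

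The order of the members by group mean was miR-222-3p, miR-221-3p, miR-221-5p and miR-222-5p in all 4 groups (CPM, means in the plot of levels by library). The 3p arms overlapped between libraries in quercetin plus LPS and quercetin cultures but not in LPS cultures or controls, and the 5p arms overlapped in every group but quercetin. In quercetin cultures miR-222-3p averaged 6074 ± 1118 CPM and miR-221-3p 6062 ± 1048 CPM (SD, n = 4), a difference well inside their spread. Together the 4 members made up 2.02% ± 0.578 of miRNA counts in quercetin plus LPS cultures, 1.32% ± 0.215 in quercetin cultures, 3.52% ± 1.23 in LPS cultures and 2.00% ± 0.253 in controls (SD, n = 4 each). By mean share of miRNA counts, miR-222-3p ranked number 19 of 1372 names in quercetin plus LPS cultures, number 23 in quercetin cultures, number 11 in LPS cultures and number 17 in controls.

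**Figure D1:**
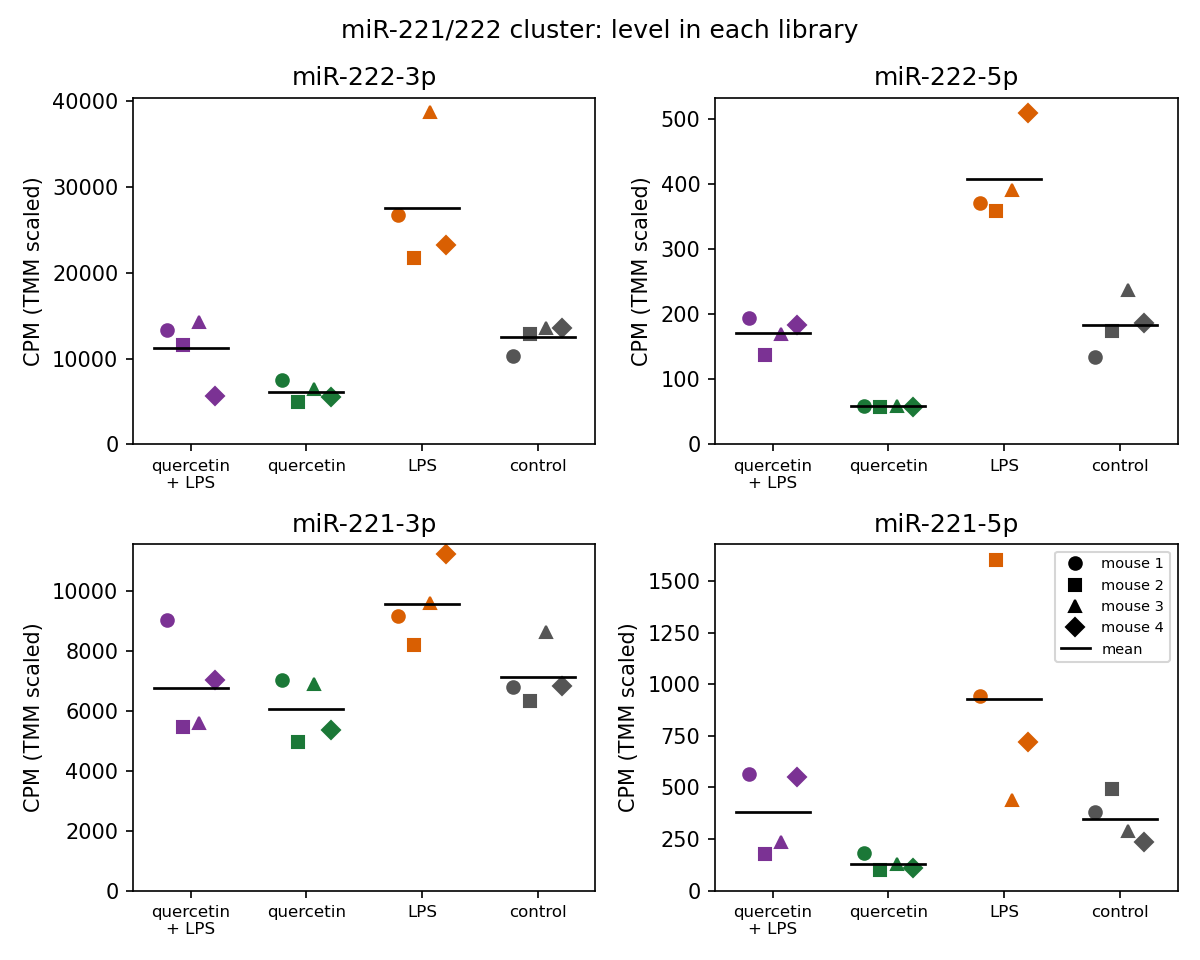
Level of each cluster member (CPM with TMM scaling, linear axis) in every library, by group, with the mouse given by marker shape and group means as black bars. In LPS cultures all miR-222-5p values lie above the controls (359 to 510 against 135 to 238 CPM), and in quercetin cultures they lie below them in a narrow band (56.9 to 59.4 CPM).

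LPS alone raised miR-222-5p, the low-abundance arm of miR-222. It had 372, 359, 392 and 510 CPM in LPS cultures of mice 1 to 4, against 135, 174.5, 238 and 186.5 CPM in the controls of the same mice. Every LPS culture was above every control. The log2 fold change was 1.15 ± 0.21 (SE), with an edgeR adjusted p of 0.0106, second by p among the 568 miRNAs. Of all miRNAs tested, 0.528% passed this threshold of 0.05, in all cases higher with LPS, and miR-222-5p was the only cluster member among them.

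The guide arm miR-222-3p had 26770, 21730, 38700 and 23230 CPM in LPS cultures of mice 1 to 4, against 10330, 12820, 13510 and 13560 CPM in controls. These groups did not overlap either, but the log2 fold change of 1.14 ± 0.26 had an edgeR adjusted p of 0.0730 (DESeq2 1.11, adjusted p = 0.0146). For miR-221-5p, LPS cultures had 945, 1604, 438.5 and 719 CPM, against 381, 491, 287 and 235.5 CPM in controls. One LPS culture (mouse 3) lay below 1 control (mouse 2), and the log2 fold change of 1.41 ± 0.43 did not pass (adjusted p = 0.306, edgeR). miR-221-3p, the guide arm of miR-221, averaged 9565 ± 1269 CPM in LPS cultures and 7139 ± 1015 CPM in controls (SD, n = 4), with overlapping groups and a log2 fold change of 0.42 ± 0.20 (edgeR adjusted p = 0.965). All 4 members were higher with LPS in 4 of 4 mice, and the miR-222 arms were 2 of 4 members without overlap, against 2.11% of all miRNAs tested that lay higher without overlap.

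The call on miR-222-5p held in 7 of 18 alternatives run. It was lost with upper quartile scaling (adjusted p = 0.0579), library size scaling (0.0606), no filter on low counts (0.0868) and only the 2 groups in the fit (0.1, all edgeR). It was also lost on leaving out any of LPS 1, LPS 2, LPS 4, control 1, control 2 or control 4, with an edgeR adjusted p of at most 0.0738 and log2 fold changes of 0.98 to 1.24 over all 8 omissions. Without the 4 libraries highest on the second principal component it was 1.17, with an adjusted p of 0.0516 (edgeR).

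The LPS response was also measured in cultures that had received quercetin. There miR-222-5p had 195, 137, 170 and 183 CPM in quercetin plus LPS cultures of mice 1 to 4, against 59.4, 57.4, 59.0 and 56.9 CPM in quercetin cultures. The lowest culture with LPS was above the highest without, and this member was the only one of the 4 without overlap, against 1.94% of all miRNAs tested that lay higher without overlap. The log2 fold change was 1.56 ± 0.21 (edgeR adjusted p = 0.000693), the smallest p of the 568 miRNAs. Only 0.352% of miRNAs passed in this comparison, miR-222-5p and miR-155-3p, both higher. The miR-222-5p call held in all 18 alternatives run, with adjusted p-values from 2.51e-13 (DESeq2) to 0.0132.

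miR-222-3p had 13360, 11530, 14280 and 5655 CPM in quercetin plus LPS cultures of mice 1 to 4, against 7455, 4888, 6435 and 5520 CPM in quercetin cultures. It was higher with LPS in 4 of 4 mice, but the culture of mouse 4 lay among those without LPS. The log2 fold change of 0.88 ± 0.26 did not pass (adjusted p = 0.347, edgeR), while without quercetin plus LPS 4 it was 1.26 with an adjusted p of 0.00605. For miR-221-5p, quercetin plus LPS cultures had 567, 178, 235 and 551 CPM, against 182, 101, 130.5 and 107 CPM in quercetin cultures. It too was higher in 4 of 4 mice with overlapping groups, and its log2 fold change was 1.55 ± 0.43 (edgeR adjusted p = 0.308, and DESeq2 1.64 with an adjusted p of 0.0197). Without quercetin plus LPS 2 it was 1.93, with an adjusted p of 0.0499. The log2 fold change of miR-221-3p was 0.16 ± 0.20 (edgeR adjusted p = 0.823), with 3 of 4 mice higher and values of 0.061 to 0.39 on leaving out each library.

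Whether the LPS response differed with and without quercetin was tested as an interaction, the log2 LPS response with quercetin minus that without. It was 0.40 ± 0.29 for miR-222-5p (95% interval -0.16 to 0.97), -0.25 ± 0.37 for miR-222-3p, 0.14 ± 0.59 for miR-221-5p and -0.26 ± 0.28 for miR-221-3p, with edgeR adjusted p-values of 0.893 to 0.959. No miRNA of 568 passed (0%), with 26 at an unadjusted p under 0.05, none of them a cluster member, and none called by DESeq2 or limma-voom. A p that misses the threshold does not show that the responses are alike.

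Quercetin alone lowered 3 of the 4 members. miR-222-5p, with the levels given above, lay lower in every quercetin culture than in any control, and its log2 fold change was -1.66 ± 0.21 (edgeR adjusted p = 4e-05). miR-222-3p was lower in every quercetin culture than in any control, with a log2 fold change of -1.05 ± 0.26 (edgeR adjusted p = 0.0140). miR-221-5p also lay lower without overlap, by -1.42 ± 0.43 on the log2 scale (edgeR adjusted p = 0.0304). Each was lower in 4 of 4 mice. In this comparison 8.98% of the 568 miRNAs passed as lower and 15.8% in either direction, and 11.1% lay lower without overlap.

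miR-221-3p differed little. It had 7021, 4961, 6891 and 5373 CPM in quercetin cultures of mice 1 to 4, against 6799, 6318, 8622 and 6817 CPM in controls. The groups overlapped, 3 of 4 mice were lower, and the log2 fold change was -0.24 ± 0.20 (edgeR adjusted p = 0.478), or -0.30 to -0.11 on leaving out each library. The call on miR-222-5p held in all 18 alternatives run. That on miR-222-3p was lost without quercetin 3 (-1.03, adjusted p = 0.0519) or quercetin 4 (-0.97, adjusted p = 0.0568, both edgeR). That on miR-221-5p was lost on leaving out any of 6 libraries (quercetin 2, 3 and 4 and controls 1, 2 and 3), with adjusted p-values up to 0.107 (edgeR). Without the 4 libraries highest on the second principal component, 2 members passed, both from miR-222, as did 7.63% of 590 miRNAs then tested.

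With LPS present in both groups, quercetin again gave lower values for these 3 members. Every quercetin plus LPS culture lay below every LPS culture for miR-222-5p, with a log2 fold change of -1.25 ± 0.21 (edgeR adjusted p = 0.000448), and for miR-222-3p, with -1.30 ± 0.26 (edgeR adjusted p = 0.00269). Both calls held in all 18 alternatives run, though without quercetin plus LPS 4 the value for miR-222-3p was -0.86. For miR-221-5p the groups overlapped, since quercetin plus LPS 1 and 4 lay above LPS 3, and the log2 fold change was -1.28 ± 0.42 (edgeR adjusted p = 0.0395). That call was lost on leaving out any of 6 libraries (quercetin plus LPS 2, 3 and 4 and LPS 1, 2 and 4), with adjusted p-values up to 0.305, and the value was -0.69 without LPS 2 and -0.82 without quercetin plus LPS 2. In this comparison 14.3% of miRNAs passed as lower and 22.9% in either direction, and 13.4% lay lower without overlap. Without the 4 libraries highest on the second principal component, the 2 miR-222 arms passed, as did 15.9% of 590 miRNAs.

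miR-221-3p had 9027, 5448, 5590 and 7047 CPM in quercetin plus LPS cultures of mice 1 to 4, against 9176, 8212, 9619 and 11250 CPM in LPS cultures. It was lower in 4 of 4 mice, with overlap through mouse 1, and its log2 fold change of -0.50 ± 0.20 did not pass (edgeR adjusted p = 0.0774). On leaving out each library it was -0.52 to -0.18, nearest to 0 without quercetin plus LPS 2. The comparisons share groups of libraries and are not independent of each other.

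Set against untreated controls, no cluster member passed the test in quercetin plus LPS cultures, and all 4 members overlapped between these groups. miR-222-5p averaged 171 ± 24.8 CPM in quercetin plus LPS cultures and 183.5 ± 42.6 CPM in controls, and miR-222-3p averaged 11200 ± 3871 and 12550 ± 1523 CPM in these groups (SD, n = 4 each). Every quercetin plus LPS culture was inside the range of the controls for miR-222-5p, whereas some lay above and some below it for the other 3 members. Log2 fold changes were -0.16 to 0.13, with edgeR adjusted p-values of 0.721 to 0.877, while 17.1% of the 568 miRNAs passed. The 95% interval for miR-222-5p was -0.50 to 0.30. The sign changed with the scaling for every member but miR-221-5p.

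**Figure D2:**
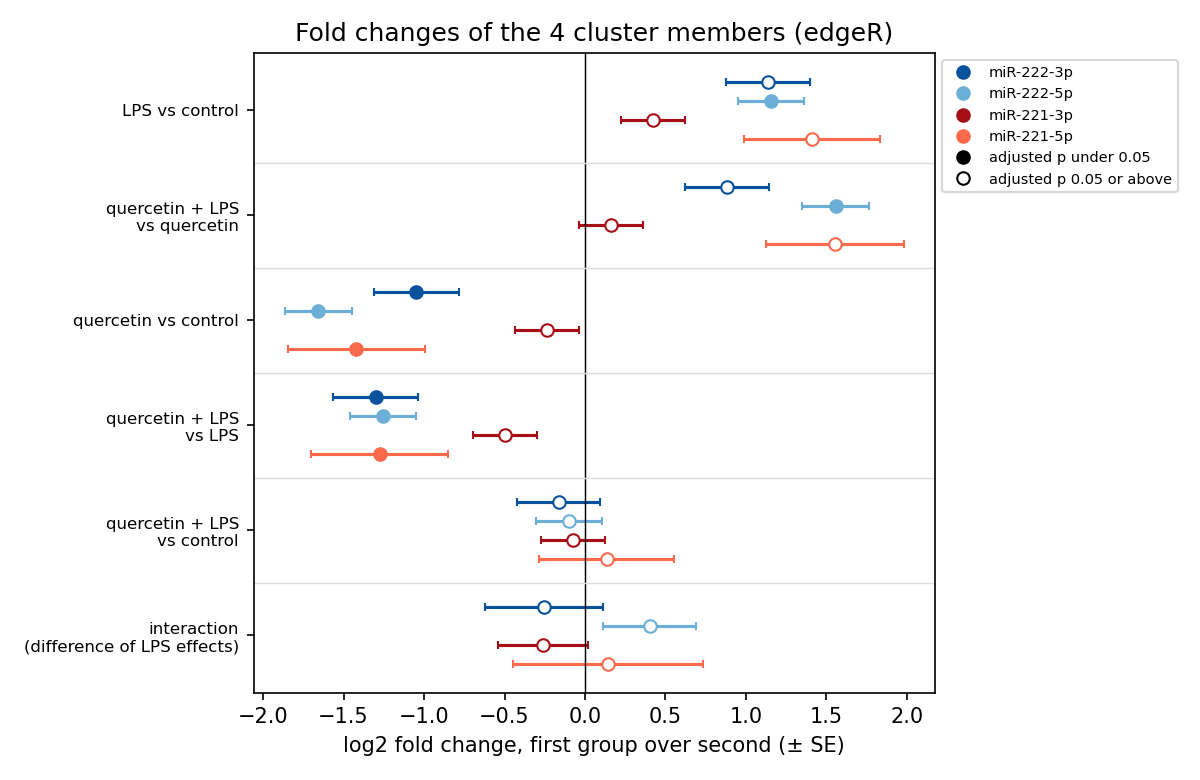
Log2 fold change of each cluster member in each comparison, with bars of 1 SE and filled points for an edgeR adjusted p under 0.05. miR-222-5p is filled for LPS against control (1.15), quercetin against control (-1.66), quercetin plus LPS against LPS (-1.25) and quercetin plus LPS against quercetin (1.56), and miR-221-3p is the member nearest to 0 in each of them.

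**Figure D3:**
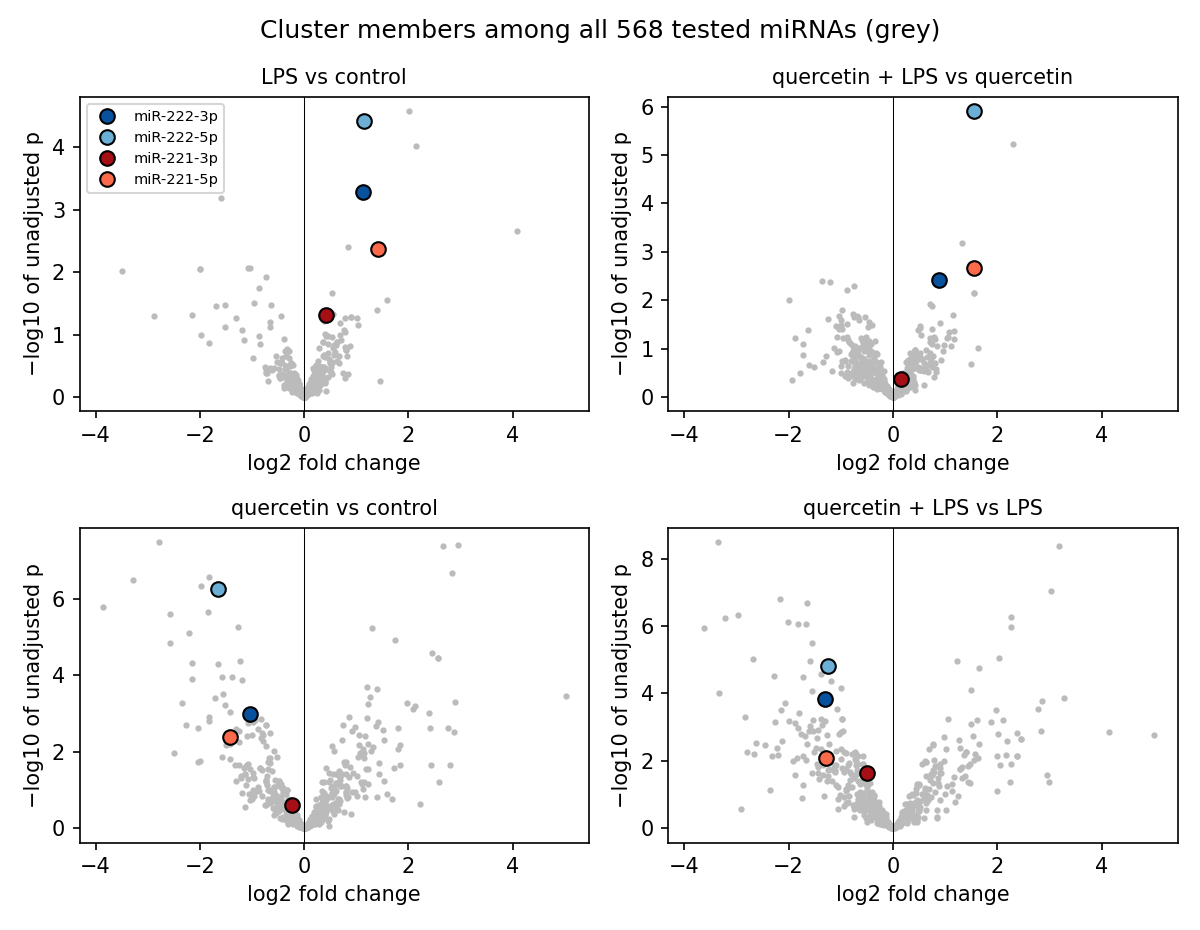
Log2 fold change against -log10 of the unadjusted edgeR p for all 568 miRNAs tested (grey), with the 4 cluster members marked. For LPS against control and quercetin plus LPS against quercetin, miR-222-5p is second and first by p, and it is number 8 for quercetin against control and number 19 for quercetin plus LPS against LPS.

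The balance of the arms within each hairpin was compared as the number of 3p reads per 5p read, which does not depend on library scaling. For miR-221 it was 15.9, 30.6, 23.8 and 12.8 in quercetin plus LPS cultures of mice 1 to 4, 38.6, 49.0, 52.8 and 50.01 in quercetin cultures, 9.71, 5.12, 21.9 and 15.7 in LPS cultures and 17.8, 12.9, 30.0 and 28.9 in controls. All quercetin cultures without LPS were above every other library. The log2 ratio of 5p to 3p was lower by -1.16 ± 0.41 in quercetin cultures than in controls (limma adjusted p = 0.152) and higher by 1.27 ± 0.41 in quercetin plus LPS than in quercetin cultures (limma adjusted p = 0.211), so neither passed. Of the 150 hairpins with both arms tested, 5.33% passed in the first of these comparisons, led by miR-29c and miR-28a. That share counts miR-486a and miR-486b separately, though their differences were identical. In the second comparison 0.667% passed, and the hairpin was miR-155.

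For miR-222 the 3p reads per 5p read averaged 66.9 ± 25.0 in quercetin plus LPS cultures, 104 ± 17.2 in quercetin cultures, 69.2 ± 22.5 in LPS cultures and 69.9 ± 8.93 in controls (SD, n = 4 each). The log2 ratio of 5p to 3p differed by 0.06 between LPS cultures and controls (limma adjusted p = 0.998) and by -0.57 between quercetin cultures and controls (limma adjusted p = 0.451). Between quercetin plus LPS and quercetin cultures it differed by 0.73 ± 0.32 (limma adjusted p = 0.503). No arm ratio of 150 hairpins passed for LPS against control, with 7 at an unadjusted p under 0.05, of which miR-221 was one (0.89 ± 0.41, limma adjusted p = 0.998).

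The shared seed allows the 3p arms to be summed. miR-221-3p and miR-222-3p together had 12700 to 22380 CPM in quercetin plus LPS cultures, 9849 to 14480 CPM in quercetin cultures, 29940 to 48310 CPM in LPS cultures and 17120 to 22130 CPM in controls. miR-222-3p gave 61.0% ± 12.1 of this sum in quercetin plus LPS cultures, 50.02% ± 1.39 in quercetin cultures, 73.6% ± 5.25 in LPS cultures and 63.7% ± 3.54 in controls (SD, n = 4 each).

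The 3p products of the 2 hairpins were also set against each other within each library. In LPS cultures of mice 1 to 4 there were 2.92, 2.65, 4.02 and 2.06 miR-222-3p reads per miR-221-3p read, against 1.52, 2.03, 1.57 and 1.99 in controls. The groups did not overlap, and the mean log2 ratio was 0.68 higher with LPS (exact two-sided permutation p = 0.0286, the smallest that 4 against 4 libraries can give, and 0.114 after adjustment over 8 tests). Quercetin cultures had 1.06, 0.985, 0.934 and 1.03, all below the controls, with a mean log2 ratio lower by -0.81 (exact permutation p = 0.0286, adjusted p = 0.114). Quercetin plus LPS cultures had 1.48, 2.12, 2.55 and 0.802, which overlapped both quercetin and LPS cultures (adjusted exact p = 0.286 and 0.229). None passed the adjustment. Over 8 tests it can be passed only where most of them are at the smallest p. Failing it does not show that the ratios are alike. For the 5p arms the corresponding differences lay between -0.22 and 0.13 (adjusted exact p = 0.869 to 0.943).

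**Figure D4:**
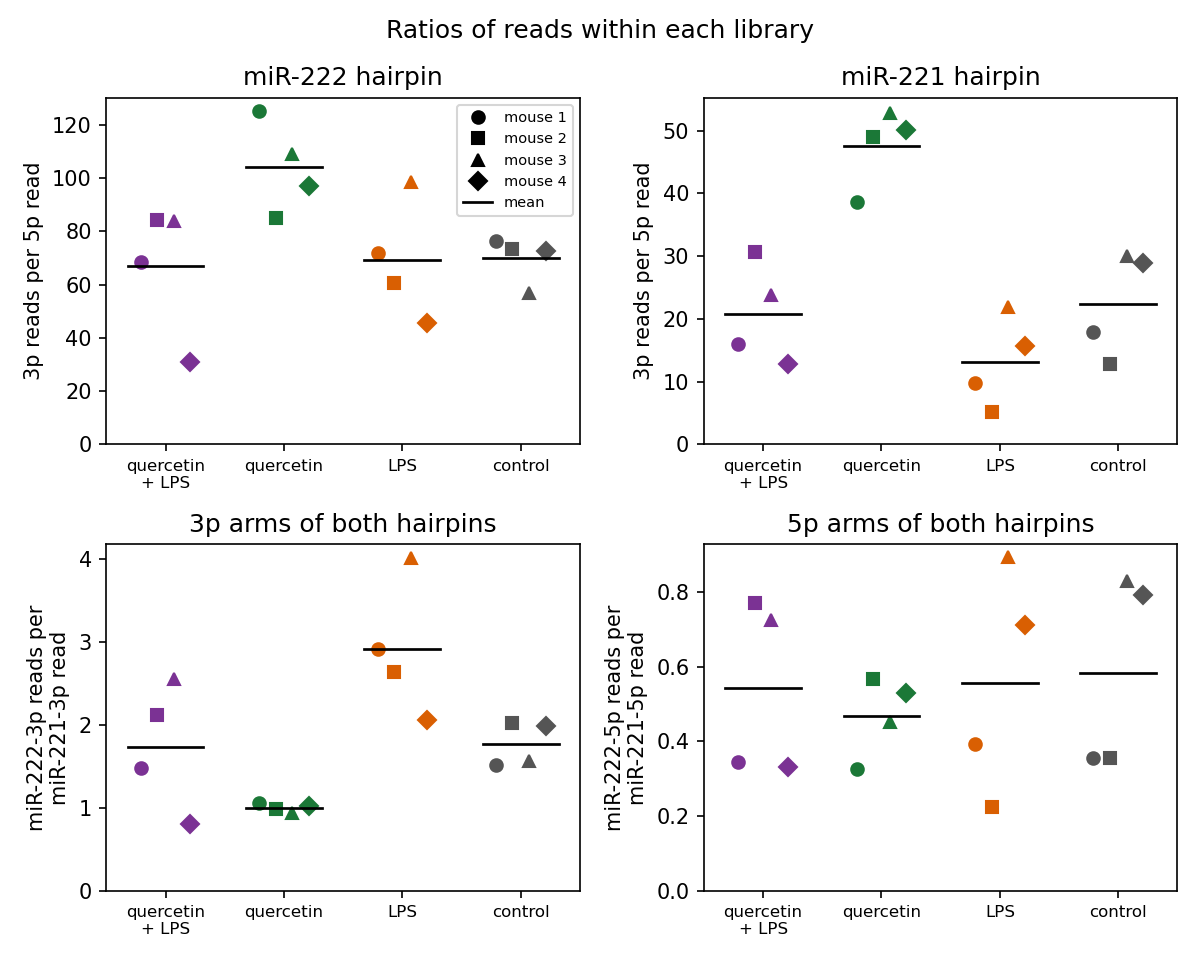
Ratios within each library, by group on linear axes: reads of one arm per read of the other for each hairpin, and miR-222 reads per miR-221 read for each arm, with group means as black bars. The quercetin cultures form the tightest group for miR-222-3p per miR-221-3p (0.934 to 1.06), below all controls (1.52 to 2.03).

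The patterns of the members over the 16 libraries were compared as the root mean square difference of their centred log2 CPM, where a smaller value is more alike, as a description. The nearest of the other 567 miRNAs to miR-222-3p was miR-222-5p (0.48), and the reverse also held. The nearest to miR-221-5p was miR-155-3p, the minor arm of the inflammation-responsive miR-155 (0.46), followed by miR-222-5p (0.59), miR-146a-5p, known for damping TLR signalling (0.68), and miR-10a-5p (0.70). Outside the cluster, the nearest to miR-222-5p was miR-7a-5p (0.62). miR-221-3p varied least (SD 0.33 on the log2 scale, against 1.11 for miR-221-5p). Its nearest was miR-466a-3p, which has the same counts as miR-466e-3p (0.21), and miR-222-3p was at rank 290 (0.65). Seen from miR-222-3p, which varied more (SD 0.85), the same difference put miR-221-3p at rank 13. All values share the same libraries and scaling factors.

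Other miRNAs known from myeloid cells as responsive to TLR signals were listed (22, of which 21 were tested). With LPS alone 1 rose and none fell, and the median log2 fold change was 0.10, beside 0.02 over all miRNAs. The one that rose was miR-155-3p, by 2.00 ± 0.35 (edgeR adjusted p = 0.0106), and it rose by 2.30 ± 0.35 in quercetin plus LPS against quercetin cultures (adjusted p = 0.00168), where it was again the only one of the 21. In quercetin cultures against controls 9 of 21 fell, beside 8.98% of all miRNAs, and none rose (median -0.73, beside -0.05 over all), and in quercetin plus LPS against LPS cultures 10 of 21 fell, beside 14.3% of all miRNAs, and none rose (median -0.78, beside -0.13 over all). Those with the smallest p in both were the arms of miR-212 and miR-132, which are transcribed together under the control of CREB. The list holds both arms of several hairpins, so its members are not independent of each other. miR-212-3p fell by 2.78 ± 0.28 on the log2 scale in quercetin cultures against controls (edgeR adjusted p = 7.89e-06). Quercetin plus LPS cultures set against controls had 7 of 21 lower, beside 10.2% of all miRNAs.

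Marker miRNAs of other cells moved with quercetin too. Of 6 erythroid miRNAs, the arms of miR-451a, miR-144 and miR-486, 5 rose with quercetin both with LPS (8.63% of all 568 rose) and without it (6.87% rose). The summed level of the 6 was 2343 to 5844 CPM in quercetin plus LPS cultures, 5044 to 13120 in quercetin cultures, 865 to 2798 in LPS cultures and 776 to 1771 in controls. The hairpins miR-486a and miR-486b had identical arm ratio differences in every comparison. Their 5p arms are both in this list and may hold the same reads, which would then enter the count and the sum repeatedly. Of 16 tested stromal, endothelial and epithelial miRNAs, 5 rose in quercetin plus LPS against LPS cultures and 1 in quercetin cultures against controls, beside the same shares of all miRNAs, and the sums were 643 to 5232, 702 to 1867, 372 to 693 and 477 to 962 CPM in the 4 groups in the same order. Neither list had a member past the threshold for LPS alone or for quercetin plus LPS against quercetin. The 2 lymphocyte miRNAs, both arms of miR-150, passed in no comparison. Of the listed markers, miR-144-5p was at 0 in 1 of 16 libraries, and 3 stromal markers that did not pass the filter were at 0 in 12 (miR-143-5p), 4 (miR-199b-5p) and 3 (miR-214-5p). The others were above 0 in every library. The part of these cells in the lower cluster levels with quercetin was not tested.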

How the data were processed

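Small RNA libraries were made with a TruSeq kit from RNA extracted with a miRNeasy kit, per the labels. The authors deposited 1 table of raw counts per mature miRNA, not normalized, for 16 libraries. Cutadapt and the build mm9 are named, per the submitters' processing notes, and the aligner and counting rule are not given in the sources used here. Of 1381 rows, 1 with text among its counts and 4 whose counts look exchanged between neighbours were left out, and 4 names on 2 rows each were summed, which left 1372 names. None of these concerns the cluster, and no other name carries the counts of a member.

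Tests used edgeR 4.0.16 (R 4.3.3): filterByExpr by group, TMM scaling, a quasi-likelihood fit in which each group of the 16 libraries had its own coefficient, and p-values adjusted by Benjamini-Hochberg over the 568 miRNAs tested. CPM are computed with TMM factors, and each SE is the log2 fold change divided by the square root of F. Intervals are the value with 1.96 SE either side. Arm ratios, log2((5p + 0.5)/(3p + 0.5)), were tested with limma 3.58.1 over 150 hairpins whose arms were matched by name. Ratios between hairpins had exact permutation tests, adjusted over 8. Alternatives were other scalings, no filter, DESeq2 1.42.0, limma-voom, only the groups compared, the mouse as a block, and leaving out libraries. Libraries with the same mouse number share a mouse, per the labels; their deviations from group means had a mean correlation of 0.14 over 24 pairs, against -0.04 over 72 pairs of different mice. Libraries are separate cultures treated differently from the same 4 mice. The lowest chi-square per degree of freedom among the 24 pairs of libraries within groups was 175, so none were duplicates.

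The named miRNAs were the members, the 3 nearest in pattern to each (those with identical counts named together), others with a member's seed, and, by p, up to 6 of a list or 3 hairpins per comparison. Members and lists were chosen with earlier results of these data known. No coordinates are in the table. Those given are of the RefSeq reference, a different build from mm9, and neighbouring genes are from GENCODE on the same build as that reference.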

Additional observations from a re-analysis of the deposited data

Results flagged for a closer look

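The arm balance of miR-222 in control 3 stood far from the other controls. Its log2 ratio of 5p to 3p was -5.825 (56.7 reads of the 3p arm per 5p read), against 72.7 to 76.5 reads of the 3p arm per 5p read in the other 3 controls. The same library stood apart on the second principal component. Among 32 sets of 4 values checked in this way it was the only one with such a gap. Chance gives such a gap in about 1 in 20 sets, so 1 among 32 is no more than chance would give.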

How the results depend on the processing

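The calls on miR-222-5p in quercetin against control, quercetin plus LPS against LPS and quercetin plus LPS against quercetin, and on miR-222-3p in quercetin plus LPS against LPS, held in all 18 alternatives run for each. The cause of the changes below was not tested. For LPS against control, the 1 member called became 0 with upper quartile scaling, library size scaling, no filter, only the 2 groups, or without the 4 libraries highest on the second principal component (an alternative chosen after seeing the data), and 2 with DESeq2 (miR-222-3p gained), while the 3 miRNAs called in all became 1 with library size scaling, 6 with DESeq2 and 0 without those 4 libraries. Quercetin against control had 45 miRNAs called without those 4 libraries, instead of 90. With only the 2 groups compared, 70 instead of 130 were called for quercetin plus LPS against LPS and 61 instead of 97 for quercetin plus LPS against control. DESeq2 called 2 members (miR-221-5p gained) and 4 miRNAs for quercetin plus LPS against quercetin. With at least 10 counts for both arms in every library, 3 arm ratios instead of 0 passed for quercetin plus LPS against LPS and 3 instead of 7 against control.

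The call on miR-221-5p for quercetin against control was lost with upper quartile scaling (-1.22), and for quercetin plus LPS against LPS with all other scalings, without a filter and with only the 2 groups (-0.90 to -1.13). That on miR-222-3p for quercetin against control was lost with library size scaling (-0.94). For quercetin plus LPS against control the sign turned for miR-221-3p with size factor (0.042), upper quartile (0.16) and library size (0.036) scaling, DESeq2 (0.042) and without the 4 libraries (0.00015), and for miR-222-5p with the same settings (0.011, 0.13, 0.020, 0.011 and 0.0068). It also turned for miR-222-3p with upper quartile scaling (0.033) and without the 4 libraries (0.082), where miR-221-5p had -0.18, as did its interaction (-0.18). Scaling moved the median log2 fold change of all miRNAs by over 0.1 in these cases. For LPS against control it was 0.02, and -0.13 with library size. For quercetin against control it was -0.05, and 0.15 with upper quartile and 0.071 with library size. For quercetin plus LPS against LPS it was -0.13, and 0.013 with size factors, 0.14 with upper quartile and 0.15 with library size. For quercetin plus LPS against control it was -0.086, and 0.015, 0.12 and 0.033 with the same 3. For the interaction it was -0.10, and -0.0014 with size factors and 0.048 with library size.

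With the mouse as a replicate block no member gained or lost a call (miR-222-5p for LPS against control 1.16, edgeR adjusted p = 0.0155), and the ratios between hairpins compared within mice had adjusted exact p-values of 0.333 to 1. The block gave 1 arm ratio past the threshold for quercetin plus LPS against LPS.

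On leaving out each library, members called were 0 to 1 (LPS against control), 1 to 3 (quercetin against control), 2 to 3 (quercetin plus LPS against LPS) and 1 to 2 (quercetin plus LPS against quercetin). All miRNAs called were 0 to 2, 54 to 76, 80 to 133 and 2 to 7 in these comparisons in this order, and arm ratios called were 0 to 1, 4 to 6, 0 to 5 and 0 to 3, with 4 to 10 for quercetin plus LPS against control. Signs turned within these ranges for quercetin plus LPS against control (miR-221-3p -0.16 to 0.19, miR-222-5p -0.077 to 0.20, miR-222-3p -0.19 to 0.24, miR-221-5p -0.043 to 0.54, arm ratio of miR-221 -0.10 to 0.35 and of miR-222 -0.18 to 0.30), for the interaction (miR-221-3p -0.30 to 0.023, miR-222-3p -0.29 to 0.16), for the arm ratio of miR-222 with LPS against control (-0.12 to 0.25) and quercetin plus LPS against LPS (-0.24 to 0.28), and for the ratio of the 5p arms with LPS against control (-0.43 to 0.23), quercetin plus LPS against LPS (-0.33 to 0.34) and against quercetin (-0.075 to 0.33). With 4 libraries a group, the unadjusted exact p of a ratio compared without regard to the mouse cannot go below 0.0286.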

Other observations

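The ratio of miR-222-5p to miR-221-5p reads split the mice within groups that had not received quercetin. In mice 1 and 2 it was 0.394 and 0.224 in LPS cultures, against 0.354 and 0.355 in controls. In mice 3 and 4 it was 0.894 and 0.710 in LPS cultures, against 0.8287 and 0.792 in controls. Quercetin plus LPS cultures of mice 1 to 4 had 0.343, 0.770, 0.726 and 0.332, and quercetin cultures had 0.327, 0.566, 0.452 and 0.530, with no such order by mouse. This was noticed in the data and was not tested.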
